A study of Mus musculus with 2 samples.

Results

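Mir204 and Mir211 are related microRNA (miRNA) genes that lie inside introns of the ion channel genes Trpm3 and Trpm1. They were taken by symbol from the deposited gene counts, and they are 2 of the 1973 miRNA genes listed there. The counts come from small RNA of the midbrain of B6NCrl mouse embryos at 15.5 days of development, in RNA shorter than 30 bases. Replicate 1 is a pool of 78 embryos and replicate 2 a pool of 62, both of mixed sex, healthy and with no treatment named in the labels. There is 1 group of 2 libraries, so the data give levels and the spread between pools, and no contrast of conditions.

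A miRNA is cut from a hairpin transcript, and 1 arm of the hairpin is loaded into Argonaute, where bases 2 to 8 of the arm (the seed) pair with target mRNAs. A miRNA in an intron can be made from the transcript of its host gene. Trpm3 encodes a calcium-permeable channel of the melastatin family, and miR-204 is best known from choroid plexus, retinal pigment epithelium and lens. Trpm1 encodes a channel of retinal bipolar cells and melanocytes, and miR-211 is best known from pigment cells.

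The mature arms are shown first because the comparison of the genes rests on how far their reads can be told apart. The sequences are those of RefSeq on GRCm38.p6 (mm10), where both members matched, and capitals mark the seed.
mmu-miR-204-5p: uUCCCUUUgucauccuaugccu
mmu-miR-211-5p: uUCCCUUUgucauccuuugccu
mmu-miR-204-3p: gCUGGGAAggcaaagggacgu
mmu-miR-211-3p: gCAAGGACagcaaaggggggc

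The 5p arms have the same seed, and over their 22 bases they differ only by A17U (the base of miR-204-5p first, positions counted from 1 at the 5′ end). Their first 16 bases are identical and 5 bases follow the difference. The 3p arms differ at 7 of 21 aligned positions, and their seeds are unlike. Of the 1738 mature arms in the RefSeq table, the 5p seed UCCCUUU was found in 1 further miRNA, miR-7670-3p. Its gene Mir7670 had 0 sense counts in both libraries. The seed of miR-204-3p recurs in miR-7684-5p, whose gene Mir7684 also had 0 counts, and the seed of miR-211-3p in no other arm. A count of 0 allows a level of up to 0.875 CPM in replicate 1 and 0.522 CPM in replicate 2, taking 3 counts as the floor. CPM is a gene's read count scaled to a common library total of sense counts over all miRNA genes.

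The full hairpins, with both mature arms in capitals, show how little else the genes have in common.
Mir204: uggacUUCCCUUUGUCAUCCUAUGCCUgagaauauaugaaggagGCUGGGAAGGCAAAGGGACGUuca
Mir211: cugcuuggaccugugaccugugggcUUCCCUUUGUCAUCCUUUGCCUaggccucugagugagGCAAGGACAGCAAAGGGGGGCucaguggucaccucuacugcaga

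Their longest shared stretch is 17 bases. None of the 51 windows of 18 bases in the Mir204 hairpin, and none of the 89 in the Mir211 hairpin, occurs exactly in any other of the 1005 RefSeq hairpins. A 5p read has to reach position 17 to belong to 1 gene alone. The deposited tables list reads with several mapping places apart from the genes, and 43.5% and 43.1% of mapped reads in replicates 1 and 2 were of that kind. How many of them came from Mir204 or Mir211 was not tested, and neither was the part of reads with a miscalled base 17. The level of Mir211 is therefore uncertain in that respect. The counts are per gene and do not separate the 5p from the 3p arm.

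Mir204 (ENSMUSG00000065507) is annotated at chr19:22750605-22750672 and Mir211 (ENSMUSG00000065585) at chr7:64205806-64205911, both on the plus strand of mm10. Each lies in an intron of its host on the same strand, with no gene annotated on the opposite strand and no other miRNA in the host's sense direction. In the longest coding transcript that spans the gene, Trpm3-218 with 25 exons and Trpm1-201 with 27, the miRNA sits in intron 6. The exons on either side are 172 bases (exon 6) and 175 bases (exon 7) long in both hosts. The position within the channel gene is thus shared by the pair, while the introns are not alike in size. Intron 6 is 33462 bases in Trpm3 and 3682 bases in Trpm1. Mir204 begins 612 kb from the start of the 856 kb Trpm3 gene, and Mir211 52.0 kb from the start of the 116 kb Trpm1 gene. Of the annotated coding transcripts, 15 of 17 of Trpm3 and 8 of 13 of Trpm1 hold the miRNA in an intron, and the others do not span it. The libraries hold small RNA, so the host mRNAs were not measured.

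**Figure D1:**
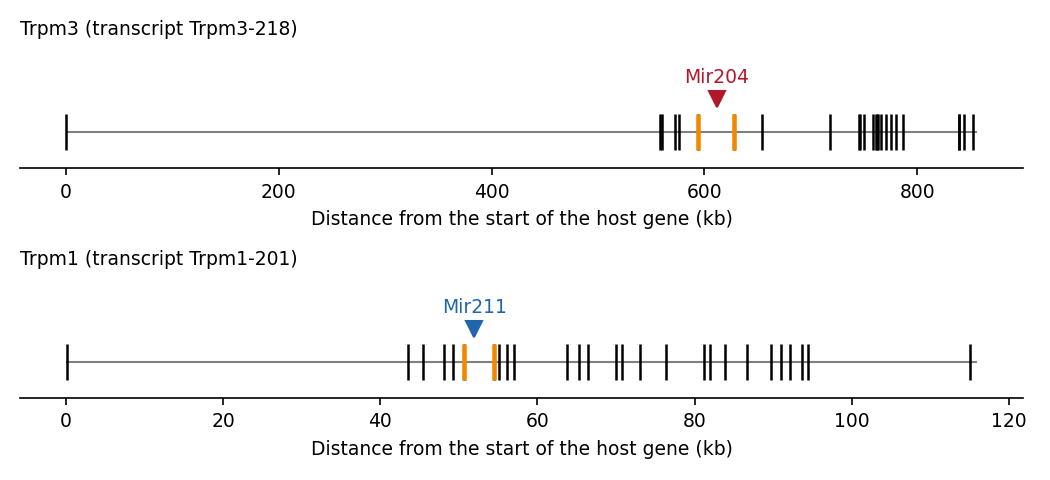
Exons (vertical bars) of Trpm3-218 and Trpm1-201 along the host gene, with the distance from the start of the host gene in kb on the x axis, on a scale of its own for each host. Triangles mark the miRNAs, which lie between exons 6 and 7 (orange) in both hosts.

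Mir204 had 3872 sense counts in replicate 1 (95% exact Poisson interval 3751 to 3996) and 8609 in replicate 2 (8428 to 8793). Mir211 had 57 (43.2 to 73.9) and 83 (66.1 to 102.9). Both genes were above the floor of 3 counts in both libraries, and Mir204 far exceeded Mir211 in each. The libraries held 3429704 and 5752476 sense counts of miRNA genes, so 1 read stood for 0.292 CPM in the first library and 0.174 CPM in the second. Intervals here cover counting error only, and the reads carry no stated molecular identifiers.

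Scaled to the library, Mir204 stood at 1129 CPM in replicate 1 and 1497 CPM in replicate 2, or 1313 ± 260 CPM (SD, n = 2). Mir211 stood at 16.6 and 14.4 CPM, or 15.5 ± 1.55 CPM. Mir204 was the 85th and 76th gene by level of the 629 and 677 genes with a count in replicates 1 and 2. Mir211 was the 290th and 300th. Mir204 thus belonged to the well counted miRNAs of the midbrain without being among the leading ones, and Mir211 lay near the middle of the genes detected. Mir204 took 0.113% and 0.150% of all sense counts, and Mir211 0.00166% and 0.00144%.

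**Figure D2:**
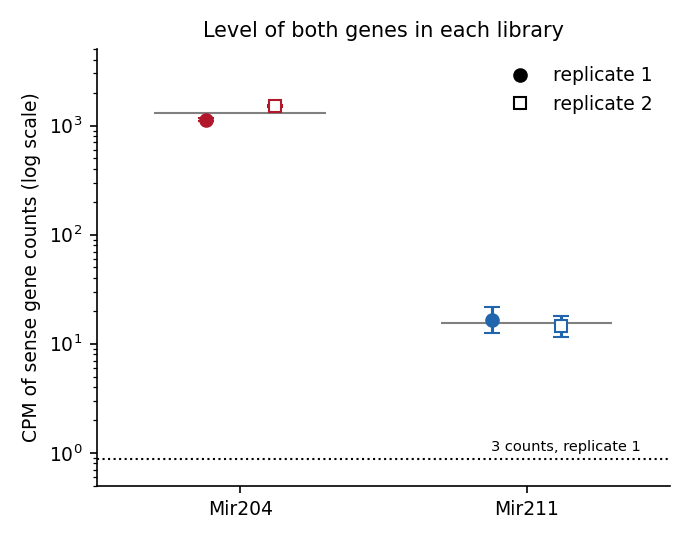
CPM of sense gene counts (log scale) of Mir204 and Mir211 in replicate 1 (filled circles) and replicate 2 (open squares), with 95% Poisson intervals, and grey lines at the means of 1313 and 15.5 CPM. The dotted line is the level of 3 counts in replicate 1, 0.875 CPM, below all 4 points.

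No read was counted on the strand opposite to either gene, so the counts without regard to strand are the same as the sense counts. For Mir204 this allows an opposite-strand share of up to 0.0775% of its sense count in replicate 1 and 0.0348% in replicate 2. For Mir211, with its few reads, it allows up to 5.26% and 3.61%. The depth thus bounds opposite-strand reads much more tightly for Mir204.

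**Figure D3:**
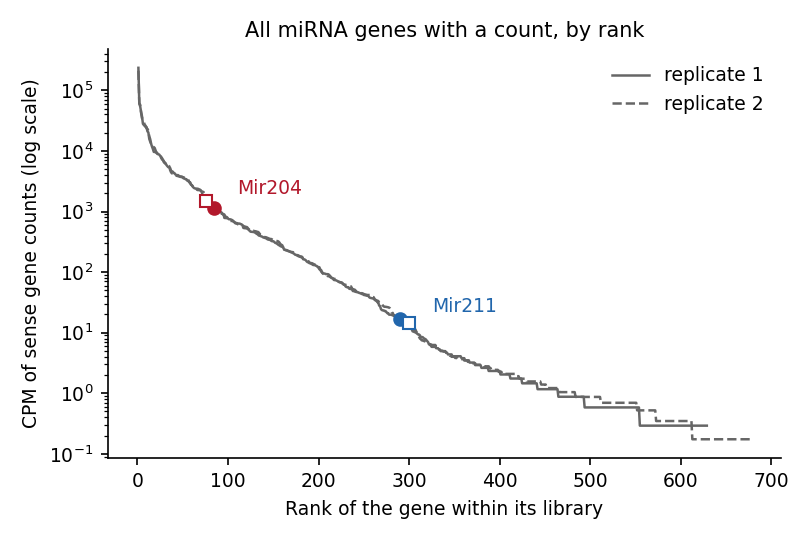
CPM of sense gene counts (log scale) of every miRNA gene with a count against its rank in replicate 1 (solid line) and replicate 2 (dashed line). Mir204 (red) sits at ranks 85 and 76, and Mir211 (blue) at ranks 290 and 300.

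Against other miRNAs in introns, the pair fell on either side of the usual level. Of 729 listed miRNA genes inside an intron of a gene on the same strand, 364 had a count and 231 reached a mean of 1 CPM. The median of those 231 was 27.3 CPM. Mir204 ranked 39th and Mir211 130th among them.

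The genes closest to each member in level were found by the distance between log2(CPM + 1) values over the 2 libraries, which are all the samples there are. For Mir204 the nearest were Mir323 (1249 and 1413 CPM in replicates 1 and 2, distance 0.17), Mir467c (1253 and 1307 CPM, distance 0.25) and Mir337 (1020 and 1238 CPM, distance 0.31). For Mir211 they were Mir5113 (16.3 and 14.1 CPM, distance 0.041), Mir181b-1 (15.5 and 16.0 CPM, distance 0.17) and Mir3064 (18.4 and 16.0 CPM, distance 0.20). With 2 libraries, such likeness is mainly likeness of level.

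Within a library the ratio of Mir204 to Mir211 needs no scaling. It was 67.9 in replicate 1 (95% exact interval 52.3 to 89.9) and 103.7 in replicate 2 (83.6 to 130.4), or 85.8 ± 25.3 (SD, n = 2). Mir211 therefore supplied 1.45% (1.101 to 1.88) of the counts of the pair in replicate 1 and 0.955% (0.761 to 1.18) in replicate 2. The arms are of equal length, so no length scaling enters, but a preference of the library chemistry for 1 of the sequences would be shared by both libraries and cannot be seen in their spread.

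The ratio was 1.53-fold higher in replicate 2 than in replicate 1 (95% exact interval 1.07 to 2.17). A two-sided Fisher's exact test on the 4 counts gave p = 0.0168. With the ratios of 5 other miRNA pairs tested in the same way, the adjusted p of Fisher's exact test was 0.0503, which misses the threshold of 0.05. This test compares these libraries by counting error and has no replicate check.

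Taken singly, Mir204 was higher in replicate 2 and Mir211 did not pass the test. After TMM scaling, the log2 ratio of replicate 2 over replicate 1 was 0.37 for Mir204 (95% counting interval 0.32 to 0.43), a 1.29-fold difference with an adjusted p of 1.91e-40 in the conditional exact binomial test, two-sided, over 717 genes. For Mir211 it was -0.22 (-0.74 to 0.28), with an adjusted p of 0.672 in the same exact test. The interval of Mir211 leaves room for a fold of 0.598 to 1.21 and does not show equal levels.

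In that test 19.8% of all genes with a count were called in either direction, and 9.76% as higher in replicate 2. Among the 203 genes whose mean reached 100 CPM, 57.1% were called and 28.1% were called as higher in replicate 2. A call for a gene as deep as Mir204 is therefore common. Its size is less so, since 6 of those 203 genes had a larger absolute log2 ratio and 3 a higher one, against a median absolute log2 ratio of 0.12. Of the 97 genes between 5 and 50 CPM, 47 had a larger absolute log2 ratio than Mir211, and 9.28% were called. When a coefficient of variation of 10% between pools was allowed for in edgeR's exact test, the adjusted p of Mir204 was 1, and 3 of 717 genes (0.418%) were called. The SD of Mir204 between the libraries was 19.8% of its mean, against a counting error of 1.61% and 1.08% in replicates 1 and 2. For Mir211 the SD was 9.98% of the mean, smaller than its counting errors of 13.2% and 10.98%.

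Since Mir204 is read as a marker of choroid plexus and Mir211 of pigment cells, marker miRNAs of epithelia were set beside them. Fewer cells of a type and less RNA per cell cannot be told apart in such pools. Among all 717 genes the median log2 ratio of replicate 2 over replicate 1 was 0.036.

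The list of multiciliated cells and choroid plexus epithelium was not higher in replicate 2. All 5 of its members had a log2 ratio below 0 (median -0.26), as 333 of all 717 genes did. The median of the list is that of Mir34b (64 and 91 counts in replicates 1 and 2). Only Mir449b (8 and 7 counts) and Mir449c (11 and 9 counts) had lower ratios, and none of these passed. By the exact binomial test 1 of 5 was lower in replicate 2. The share called lower was 10.04% of all genes and 29.1% of those of at least 100 CPM, where this gene lies. That gene is Mir449a, a regulator of multiciliated cell formation, at 2268 CPM in replicate 1 and 2125 CPM in replicate 2 (log2 ratio -0.13). It did not keep its call with a coefficient of variation of 10%. Mir34c, of the same family, had 553 and 536 CPM (log2 ratio -0.076) and did not pass. The list summed to 2845 CPM in replicate 1 and 2680 CPM in replicate 2, most of it from Mir449a. Its members are all of the Mir34 and Mir449 family and may not be independent of each other. The part of choroid plexus in the higher level of Mir204 was not tested.

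Most eye and sensory epithelium markers were lower in replicate 2. The list holds no marker chosen for pigment cells, so it cannot be read together with Mir211, whose log2 ratio below 0 did not pass the test. All 4 members had a log2 ratio below 0 (median -0.47), as 333 of all 717 genes did. Of the 4, 3 were called lower, against 10.04% of all genes and 29.1% of those of at least 100 CPM, where all 3 lie. None of the 3 kept its call with a coefficient of variation of 10% (adjusted p of edgeR's exact test 0.436 for Mir182 and 1 for Mir183 and Mir96). Mir182, Mir183 and Mir96 form 1 cluster that is known from photoreceptors and hair cells, so they are not independent of each other. Mir182 fell from 907 CPM in replicate 1 to 628 CPM in replicate 2, Mir183 had 718 and 599 CPM, and Mir96 had 231 and 183 CPM. Mir184, known from cornea and lens, had 17 and 14 counts and did not pass. Their summed level was 1861 CPM in replicate 1 and 1412 CPM in replicate 2.

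Of the general epithelial markers, 3 of 7 were called higher in replicate 2, where 9.76% of all genes were. Of these 3, Mir203 lies among genes of at least 100 CPM, of which 28.1% were called higher. Mir205 and Mir429 lie between 5 and 50 CPM, where 9.28% were called in either direction. All 7 members had a log2 ratio above 0 (median 0.65), as 384 of all 717 genes did. Mir200a, Mir200b, Mir200c and Mir141 did not pass. Members of the miR-200 family may not be independent of each other. Mir205, known from stratified epithelium, stood at 17.8 and 57.9 CPM in replicates 1 and 2, Mir429 of the miR-200 family at 37.0 and 60.0 CPM, and Mir203, known from epidermis, at 568 and 635 CPM. When 10% variation between pools was allowed for, Mir205 kept its call, and Mir429 and Mir203 did not (adjusted p of edgeR's exact test 0.462 and 1). The list summed to 657 CPM in replicate 1 and 803 CPM in replicate 2. The part of these epithelial miRNAs, or of the tissue taken with the midbrain, in the higher level of Mir204 was not tested.

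**Figure D4:**
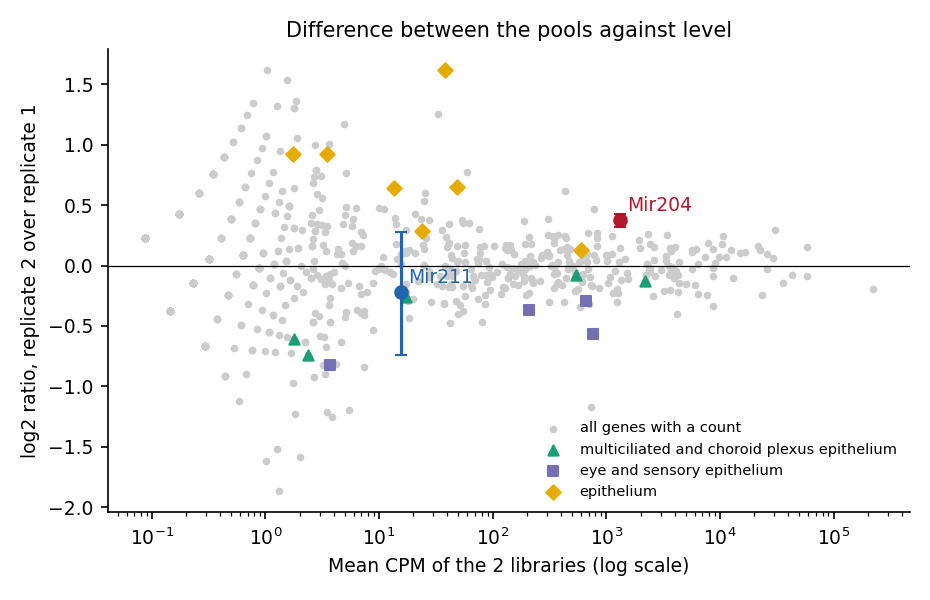
Log2 ratio of replicate 2 over replicate 1 (y axis) against the mean CPM of both libraries (x axis, log scale) for the 717 genes with a count (grey), 3 marker lists (colours) and both members with 95% counting intervals. Mir204 lies at 0.37, above most genes of its level, and the interval of Mir211 spans 0.

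The ratio of Mir204 to Mir211 was set beside 5 other pairs of related miRNAs in related host genes. In counts, the Trpm pair lay between pairs with a much larger and pairs with a much smaller gap. Mir26b exceeded Mir26a-2 by 798 and 653 times in replicates 1 and 2, in Ctdsp1 and Ctdsp2, which encode phosphatases of RNA polymerase (Mir26a-2 overlaps an annotated exon, and the other genes of the pairs are intronic). Mir107 exceeded Mir103-1 by 407 and 372 times, in Pank1 and Pank3, which encode pantothenate kinases.

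The other 3 pairs were closer together. Mir208b of the myosin gene Myh7 exceeded Mir208a of Myh6 by 3.82 and 6.37 times. Mir218-2 of Slit3 exceeded Mir218-1 of Slit2 by 2.53 and 2.03 times, and Mir128-1 of R3hdm1 exceeded Mir128-2 of Arpp21 by 1.88 and 1.63 times. Among the pairs chosen, the Trpm pair held the third place in both libraries. Its interval overlapped that of no other of them in the same library. The place depends on the copies chosen. Mir103-2, which also holds miR-103-3p, had 193 and 339 counts in replicates 1 and 2, against 19 and 36 for Mir103-1. Paired with Mir103-2, Mir107 would show a smaller gap. Other neighbours in the order were not all apart: the intervals of Mir128 and Mir218 overlapped in both libraries, and in replicate 1 so did those of Mir218 and Mir208 and those of Mir107 and Mir26.

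The pairs are not equally well measured. Every annotated mature arm of Mir204, Mir211, Mir208a and Mir208b was found in its own RefSeq hairpin alone. In the other 4 pairs at least 1 gene has an arm that recurs whole in another hairpin, such as miR-128-3p in both Mir128 hairpins and miR-218-5p in both Mir218 hairpins. Reads of such an arm have several mapping places and are given to no gene. For the pairs with the largest gaps, the arms concerned are miR-26a-5p of Mir26a-2 and miR-103-3p of Mir103-1, so the lost reads lower the second gene and raise the ratio. The Trpm pair was tested against all 5 pairs, and for this reason only the test against Mir208b and Mir208a is given. The ratio of the Trpm pair was 17.8 and 16.3 times as large as theirs in replicates 1 and 2 (adjusted p of Fisher's exact test 3.91e-14 and 1.98e-31, two-sided, over the 10 tests of 5 pairs in 2 libraries). This test again covers counting error only, and it rests on few counts of the other pair. Mir208b had 65 and 274 counts in replicates 1 and 2, and Mir208a 17 and 43. Mir208b itself differed between the pools, with a log2 ratio of 1.25. It kept its call with a coefficient of variation of 10% (adjusted p of edgeR's exact test 0.0012).

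**Figure D5:**
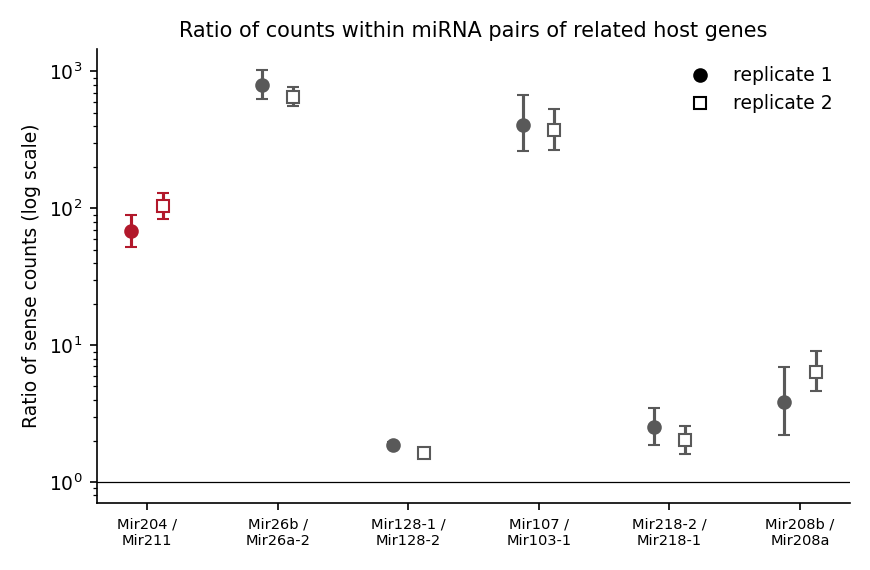
Ratio of sense counts (log scale) of the first to the second miRNA in 6 pairs of related host genes, in replicate 1 (filled circles) and replicate 2 (open squares), with 95% exact intervals. The pair Mir204 and Mir211 (red) lies at 67.9 and 103.7, below 2 pairs and above 3.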

How the data were processed

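The authors deposited whole read counts per miRNA gene, without normalization, in 3 columns (without regard to strand, sense strand, opposite strand) for each of 2 midbrain libraries, aligned to mm10 with GENCODE M4 per the deposited readme text. No source used here names the aligner or the counter. The 4 rows that name no gene stayed out of library sizes. Unmapped reads were 13.4% and 16.9% of listed reads in replicates 1 and 2, and reads with several mapping places 37.7% and 35.8%.

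Symbols and positions came from GENCODE M21, on the same assembly, with 1894 of 1973 identifiers matched. The Mir204 identifier has an earlier version in the files, so its counted interval may differ from the one given. Sequences are RefSeq's.

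Sense counts were scaled to CPM. Pools were compared with TMM (edgeR 4.0.16), a conditional exact binomial test (scipy 1.17.1), Benjamini-Hochberg adjustment over 717 genes and a pseudocount of 1 CPM, which understates ratios of low genes. The procedure was tested on simulated counts that held sampling noise only, so that check does not cover variation between pools. With 1 group, edgeR's quasi-likelihood test has nothing to compare. The libraries differed by more than sampling noise (chi-square 27501 on 716 degrees of freedom) and counted as 2 replicates. The labels call them biological replicates, from pools of 78 and 62 embryos.

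Other scalings (DESeq2 1.42.0 size factors among them), pseudocounts, filters, denominators, strand columns and left-out replicates were tried. Named genes were the members, the 3 nearest genes to each, sharers of a seed, 5 fixed host pairs, and the 2 highest and any called members of 7 marker lists. Members of lists that did not pass (Mir34b, Mir449b, Mir449c, Mir184, the Mir200 genes, Mir141 and the Mir124a copies) are named outside that rule, after their values were seen. Mir103-2, a further copy beside a pair member, is also named outside it. Members, lists and pairs were chosen with earlier results of these data known.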

Additional observations from a re-analysis of the deposited data

How the results depend on the processing

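Levels depended on the total they were scaled to. Mir204 came to 1687 CPM without Mir99a in the total, 691 when scaled to mapped reads and 584 when scaled to all listed reads, and Mir211 to 20.02, 8.16 and 6.94. Without 1 replicate Mir204 ranged from 1129 to 1497 CPM, Mir211 from 14.4 to 16.6 CPM and their ratio from 67.9 to 103.7. The ratio was 52.2 with a pseudocount of 10 CPM, because that raises Mir211 most. The log2 ratio of Mir204 between the pools lay between 0.36 and 0.41 under every scaling, pseudocount, filter and strand column tried and passed the exact binomial test in each. It stayed 0.37 but did not pass edgeR's exact test with a coefficient of variation of 10% or 20%. Mir211 did not pass any test run, with log2 ratios of -0.24 to -0.14. Genes called between the pools numbered 142, against 141 to 152 under other scalings, filters and strand columns, 3 with a coefficient of variation of 10% and 0 with 20%. No paired analysis was possible because there is only 1 group. With 57 and 83 reads, depth limits what can be said of Mir211.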

Other observations

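Marker miRNAs of other cell types were looked at as well. Of the list of neurons and neural tube, 13 of 14 members were in the tables, led by Mir137 (10800 and 11585 CPM in replicates 1 and 2) and Mir92b (4076 and 4045 CPM). By the exact binomial test, 4 were higher and 2 lower in replicate 2, and the median log2 ratio was 0.036. That test called 19.8% of all genes and 57.1% of those of at least 100 CPM, where every called member of the list lies. Mir137, Mir153, Mir128-2 and Mir9-3 were higher, and Mir138-1 and Mir92b lower, none by more than 0.27 on the log2 scale. None of them kept its call with a coefficient of variation of 10%. The 3 copies of Mir124a, a neuronal miRNA, had 14 counts or fewer in replicate 1 and 19 or fewer in replicate 2. Their levels are uncertain, since reads with several mapping places are given to no gene. The same holds for Mir128-1 and Mir128-2, which share miR-128-3p, so the order within the list is uncertain too. Whether other members with several copies lost reads in this way was not tested.

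Of 7 mesenchymal and meningeal miRNAs, 1 was called lower in replicate 2, where 10.04% of all genes were, and 3 had a log2 ratio above 0 and 4 below. The called gene was Mir143 of smooth muscle at 6322 and 5794 CPM, and Mir140 of cartilage had 3692 and 3671 CPM. Endothelial Mir126a, the only 1 of 2 listed that was measured, was called lower in replicate 2, at 24909 and 21568 CPM. Among genes of at least 100 CPM, where Mir143 and Mir126a lie, 29.1% were called lower. Neither kept its call with a coefficient of variation of 10%. None of the 4 blood miRNAs in the tables was called, with Mir223 of myeloid cells at 161 and 155 CPM and Mir451a of red cells at 137 and 153 CPM.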
